A study of Mus musculus with 16 samples.

Results

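The genes described here encode the enzymes that break down and rebuild glucose: glycolysis, the fates of its product pyruvate, gluconeogenesis, the entry of fructose and galactose, and the pentose phosphate pathway. They were taken by symbol from a fixed list of 43 enzyme genes. Of these, 40 had a row among the 18132 genes measured, and the remaining 3 (HK2, GPI1 and LDHB) were not analysed here. Symbols are written in capitals, as in the deposited table. The rule sets no threshold on measured values.

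Kidney RNA was measured on Illumina MouseRef-8 v2 BeadChips, 1 array per kidney and 16 arrays in all. The mice were wildtype (WT) or carried a deletion of IL-33 (IL-33-deficient, KO), a cytokine that is also found in the cell nucleus. The mutant line had been backcrossed to the C57BL/6J BomTac background, and the methods give an age of 8 weeks unless stated otherwise. In the UUO groups the left ureter was closed by a clip (unilateral ureteral obstruction) and the kidney was taken 24 h later. There were 7 WT UUO kidneys, 5 IL-33-deficient UUO kidneys, 2 WT control kidneys and 2 IL-33-deficient control kidneys. The labels describe the controls as untreated, so that operation and obstruction cannot be told apart. The mice with UUO formed 2 sets. Set 1 gave 3 WT kidneys and 2 without IL-33, set 2 gave 4 WT kidneys and 3 without IL-33, and no set is given for the controls. Each array carries its own number, which is used below to name kidneys. The labels tie the deletion to no cell type.

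Glycolysis splits glucose into pyruvate, with a net yield of ATP, and pyruvate is then reduced to lactate or burned in mitochondria after the pyruvate dehydrogenase complex has turned it into acetyl-CoA. Gluconeogenesis runs from pyruvate back to glucose and uses enzymes of its own at the irreversible steps. In the kidney it is a known task of the proximal tubule, which draws its energy mainly from fatty acids, whereas distal segments and the medulla rely more on glycolysis. The pentose phosphate pathway branches off at glucose 6-phosphate and provides NADPH and ribose. Many steps are served by paralogs, sister genes that encode forms of the same enzyme with different tissue patterns.

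The labels were first checked with IL33 itself. Its log2 intensity lay at 7.62 and 8.02 in the WT controls and rose to values from 8.39 to 9.57 with a median of 9.44 in the WT UUO kidneys. In the IL-33-deficient kidneys it lay between 6.80 and 7.02, below every WT kidney. The arrays had been made alike by the authors, with array medians between 132 and 133 on the intensity scale, and the lowest intensity found, 95.5, shows that background was left in the values. The table holds no detection values, so no gene was removed for being dim, and the fold changes of dim genes are compressed. The median log2 intensity over all genes was 7.05, and members with means near this value, such as HK3, PFKFB1, PFKFB3, PGK1, ENO2, PKLR and PCK2, are read with that limit.

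Obstruction was followed in both genotypes by large falls of G6PC, which releases free glucose, and of KHK, which phosphorylates fructose, and by smaller rises of the pentose phosphate genes PGD and TKT. In WT kidneys 10 of the 40 members were lower after UUO and 5 were higher at an adjusted p under 0.05 (limma over all 18132 genes with Benjamini-Hochberg adjustment), beside 8.22% of all genes lower and 6.97% higher. Together these 15 members stand beside 15.2% of all genes called in either direction. In IL-33-deficient kidneys 14 members were lower and 10 were higher, beside 11.2% and 10.6% of all genes, and the 24 members together stand beside 21.8% of all genes. The median log2 difference of the members was -0.05 in WT and -0.04 in IL-33-deficient kidneys, near the median over all genes, which rounds to 0 in both, so the members did not move together in one direction. With 1 WT control left out, so that the lone control is assumed to vary like the other groups, 3 members were lower without either kidney 3811 or 3812, and 1 or 0 were higher, while the calls over all genes went from 2754 to 1051 and 809. Without WT UUO kidney 3820, 8 members were higher in WT kidneys, beside 3578 of all genes called in either direction. Counts over all genes with an array or set left out, here and below, join genes called lower and higher. Without control kidney 3813, 4 members were higher in IL-33-deficient kidneys, where the calls over all genes went from 3955 to 2276. The range was wide, from -3.25 for G6PC to 0.85 for PGD in WT and from -4.08 to 1.16 for the same genes in IL-33-deficient kidneys. Whole kidneys were measured, so that fewer cells of a type and less RNA per cell cannot be told apart. Each UUO kidney came from its own mouse, since the left ureter alone was closed. For the control kidneys the labels do not state this, and their spread may be technical.

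**Figure D1:**
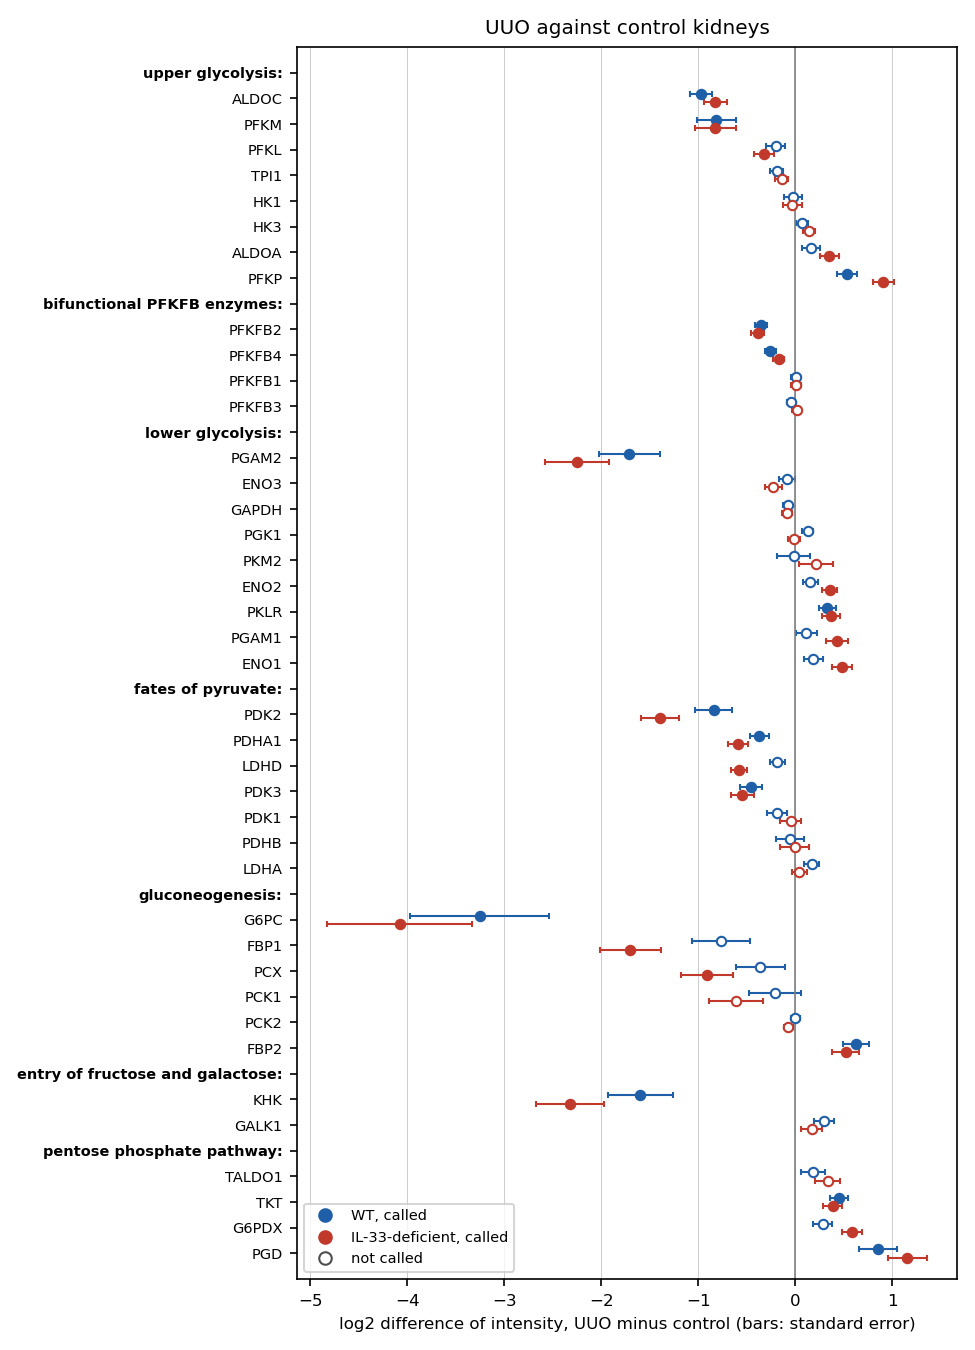
The log2 difference of intensity, UUO minus control, is drawn on the horizontal axis for each of the 40 members, in rows grouped by their step in metabolism, with WT in blue and IL-33-deficient kidneys in red, bars showing the standard error of the fit and filled points an adjusted p under 0.05. G6PC lies farthest to the left in both genotypes, at -3.25 and -4.08, and PGD farthest to the right, at 0.85 and 1.16.

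Among the 6 genes of gluconeogenesis, 1 fell and 1 rose in WT kidneys, and 3 fell and 1 rose in IL-33-deficient kidneys. The counts by step, here and below, stand beside 8.22% of all genes lower and 6.97% higher in WT kidneys. In IL-33-deficient kidneys 11.2% of all genes were lower and 10.6% higher. With so few members in a step, a count of 1 is not read as a result about the step. G6PC, the catalytic subunit of glucose-6-phosphatase that releases free glucose in the last step, gave the largest fall of all members. Its log2 intensity was 13.07 and 13.14 in the WT controls and 12.66 and 13.12 in the IL-33-deficient controls. After UUO it had values from 8.35 to 11.78 with a median of 9.17 in WT kidneys and values of 8.45, 8.58, 8.76, 8.85 and 9.44 in IL-33-deficient kidneys. No UUO kidney reached a control kidney of its genotype, and the WT kidneys were widely spread, with kidneys 3818 and 3820 of set 1 highest at 11.78 and 11.61. The fitted log2 difference, UUO minus control, was -3.25 ± 0.72 (SE), fold 0.105, adjusted p = 0.00687 in WT and -4.08 ± 0.75 (SE), fold 0.0592, adjusted p = 0.00108 in IL-33-deficient kidneys, where the fold is the UUO over the control intensity.

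FBP1 and FBP2 encode fructose-1,6-bisphosphatases, which bypass phosphofructokinase on the way back to glucose. FBP1 is known as the liver and kidney form and FBP2 as the muscle form. FBP1 had values of 12.58 and 12.64 in WT controls and 12.64 and 12.84 in IL-33-deficient controls. In WT kidneys after UUO it had values from 11.03 to 12.68 with a median of 11.91, and in IL-33-deficient kidneys values of 10.63, 10.82, 11.09, 11.10 and 11.58. Kidney 3820, at 12.68, lay above both WT controls and the other 6 WT UUO kidneys below them, and the WT difference of -0.77 ± 0.30 (SE), fold 0.587, adjusted p = 0.108 did not pass the test. The 5 IL-33-deficient UUO kidneys all lay below their controls, with a difference of -1.70 ± 0.31 (SE), fold 0.308, adjusted p = 0.0011.

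FBP2 rose. It had values of 9.11 and 9.14 in WT controls and 8.72 and 9.13 in IL-33-deficient controls, and after UUO values from 9.54 to 10.11 with a median of 9.71 in WT kidneys and values of 9.33, 9.36, 9.42, 9.52 and 9.61 in IL-33-deficient kidneys. Every UUO kidney lay above the controls of its genotype, with differences of 0.63 ± 0.14 (SE), fold 1.54, adjusted p = 0.00606 in WT and 0.52 ± 0.14 (SE), fold 1.43, adjusted p = 0.0146 in IL-33-deficient kidneys. The rise in IL-33-deficient kidneys rests on control kidney 3813, without which it was 0.31 (adjusted p = 0.295). Kidneys 3818 and 3820, the WT UUO kidneys nearest to the controls for G6PC, were the farthest from them for FBP2, at 9.96 and 10.11.

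FBP1 and FBP2 lie next to each other on the minus strand of chromosome 13 in GRCm38.p6, with 6352 bases and 0 annotated genes between them. The 250 bases before the start of G6PC, the member that fell most, and the bases before the starts of this pair of neighbours, which changed in opposite directions in IL-33-deficient kidneys, are printed from RefSeq (GRCm38.p6), 5′ to 3′ on the strand of the gene. For FBP1 the 16 bases next to the start were left out because they lie inside another annotated transcript of the gene. Capitals mark matches on either strand to the motifs searched: GTTAAT, the core letters of HNF1 sites, and TATAAA, the TATA box, in G6PC, GGGCGG, the GC box, in FBP1, and TGACG (shown as its reverse complement) and CACGTG, the E-box, in FBP2. The match to CACGTG also holds ACGTG, the core of hypoxia response elements, on both strands.
G6PC, chr11:101367466-101367715, plus strand: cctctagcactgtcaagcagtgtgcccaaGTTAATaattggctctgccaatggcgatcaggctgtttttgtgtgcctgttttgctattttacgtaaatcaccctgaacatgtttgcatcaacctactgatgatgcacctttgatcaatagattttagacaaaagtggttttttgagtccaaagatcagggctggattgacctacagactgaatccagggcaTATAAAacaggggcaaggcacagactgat
FBP1, chr13:62888299-62888532, minus strand: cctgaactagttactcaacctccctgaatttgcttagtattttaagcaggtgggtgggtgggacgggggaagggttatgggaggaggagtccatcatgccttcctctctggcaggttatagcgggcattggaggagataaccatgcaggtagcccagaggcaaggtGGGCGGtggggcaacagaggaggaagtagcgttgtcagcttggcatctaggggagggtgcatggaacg
FBP2, chr13:62858401-62858650, minus strand: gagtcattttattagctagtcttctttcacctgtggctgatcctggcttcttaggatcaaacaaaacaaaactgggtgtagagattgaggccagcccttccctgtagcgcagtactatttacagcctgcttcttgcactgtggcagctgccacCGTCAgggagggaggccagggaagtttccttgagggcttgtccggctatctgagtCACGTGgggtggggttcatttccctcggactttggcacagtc
Over 32851 mouse promoter windows of 250 bases before the start, GTTAAT was present in 6.43%, TATAAA in 12.4%, GGGCGG in 32.7%, TGACG in 17.8%, CACGTG in 6.02% and ACGTG in 16.6%. The 40 members had 62 such windows, of which 21 (33.9%) held ACGTG, 10 (16.1%) held CACGTG, 28 (45.2%) held GGGCGG and 5 (8.06%) held GTTAAT. Counted by gene, 17 of the 40 members had a window with ACGTG, among them 5 of the 10 that fell in both genotypes and 1 of the 5 that rose in both. GCGTG, the other hypoxia response core searched, was held by 28 (45.2%) of the 62 windows and by 28.2% of all windows. Counted by gene, it was held by 23 of the 40 members, 6 of the 10 that fell and 3 of the 5 that rose. A gene can have several windows, so counts by gene are not to be set against shares of windows. These matches describe letters in a window, and binding was not measured.

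The other members of gluconeogenesis act before fructose-1,6-bisphosphatase. PCX, pyruvate carboxylase, makes oxaloacetate from pyruvate in the mitochondrion and PCK1 turns it into phosphoenolpyruvate in the cytosol. PCX had a difference of -0.36 ± 0.25 (SE), adjusted p = 0.441 in WT kidneys, where kidney 3820 at 9.69 lay above both controls at 9.25 and 9.41. In IL-33-deficient kidneys it fell, from 9.19 and 9.46 to 8.11, 8.25, 8.28, 8.48 and 8.98, a difference of -0.91 ± 0.27 (SE), adjusted p = 0.0219. PCK1 had differences of -0.21 ± 0.27 (SE), adjusted p = 0.727 in WT and -0.61 ± 0.28 (SE), adjusted p = 0.149 in IL-33-deficient kidneys, and did not pass the test. Neither did PCK2, the mitochondrial form, with an adjusted p of 0.999 in WT and 0.372 in IL-33-deficient kidneys, at a log2 intensity of 6.81 ± 0.00 (SD, n = 2) in WT controls.

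KHK, ketohexokinase, phosphorylates fructose and is known from liver and proximal tubule. It lay at 12.68 and 12.85 in WT controls and 12.69 and 12.73 in IL-33-deficient controls. After UUO it had values from 10.57 to 12.26 with a median of 11.09 in WT kidneys and values of 9.86, 10.22, 10.47, 10.58 and 10.82 in IL-33-deficient kidneys, so that both genotypes lay entirely below their controls. Kidney 3820 came nearest to the controls, at 12.26. The differences were -1.60 ± 0.34 (SE), fold 0.331, adjusted p = 0.00539 in WT and -2.32 ± 0.35 (SE), fold 0.2, adjusted p = 0.000274 in IL-33-deficient kidneys. GALK1, galactokinase, which brings galactose into the pathway, had differences of 0.29 ± 0.10 (SE), adjusted p = 0.0719 and 0.17 ± 0.11 (SE), adjusted p = 0.33.

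Markers of the proximal tubule moved with these genes. Of 12 marker genes measured, 2 were lower after UUO in WT and 8 in IL-33-deficient kidneys, and none was higher. Their summed intensity was 83645 to 86452 in WT controls, 40841 to 80228 in WT UUO kidneys, 86874 to 90559 in IL-33-deficient controls and 32497 to 48785 in IL-33-deficient UUO kidneys. Kidney 3820 had the highest sum of the WT UUO kidneys and kidney 3819 the lowest. Of 9 tubular injury genes measured, 8 were higher in each genotype, and their sum rose from between 6583 and 7882 in WT controls to between 23799, in kidney 3820, and 48093, in kidney 3819. Other cell types moved as well, and not all were lower. Of 9 fibroblast and smooth muscle markers 6 were higher in each genotype, and 1 was lower in WT kidneys. Of 7 endothelium markers 2 were lower in WT and 3 in IL-33-deficient kidneys, and 0 were higher. Of 8 markers of the thick limb and distal tubule, 5 were lower in WT and 4 in IL-33-deficient kidneys, with sums of 25184 to 29198 in WT controls, 8664 to 22466 in WT UUO kidneys, 22572 to 27831 in IL-33-deficient controls and 10738 to 14414 in IL-33-deficient UUO kidneys. Of 8 collecting duct markers 3 were lower in each genotype, and of 6 red blood cell markers 1 was, and none of either list was higher. SLC4A1 is on both lists. Over all genes 8.22% were lower in WT and 11.2% in IL-33-deficient kidneys, and 6.97% and 10.6% were higher. The red blood cell sums after UUO spanned the controls in WT kidneys, at 4046 to 21040 against 13636 to 20533. In IL-33-deficient kidneys they lay below the controls, at 4789 to 13496 against 19547 to 20369. No marker was at 0, since background alone gives an intensity. The part of these shifts in the falls of G6PC, FBP1, KHK and PCX was not tested.

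**Figure D2:**
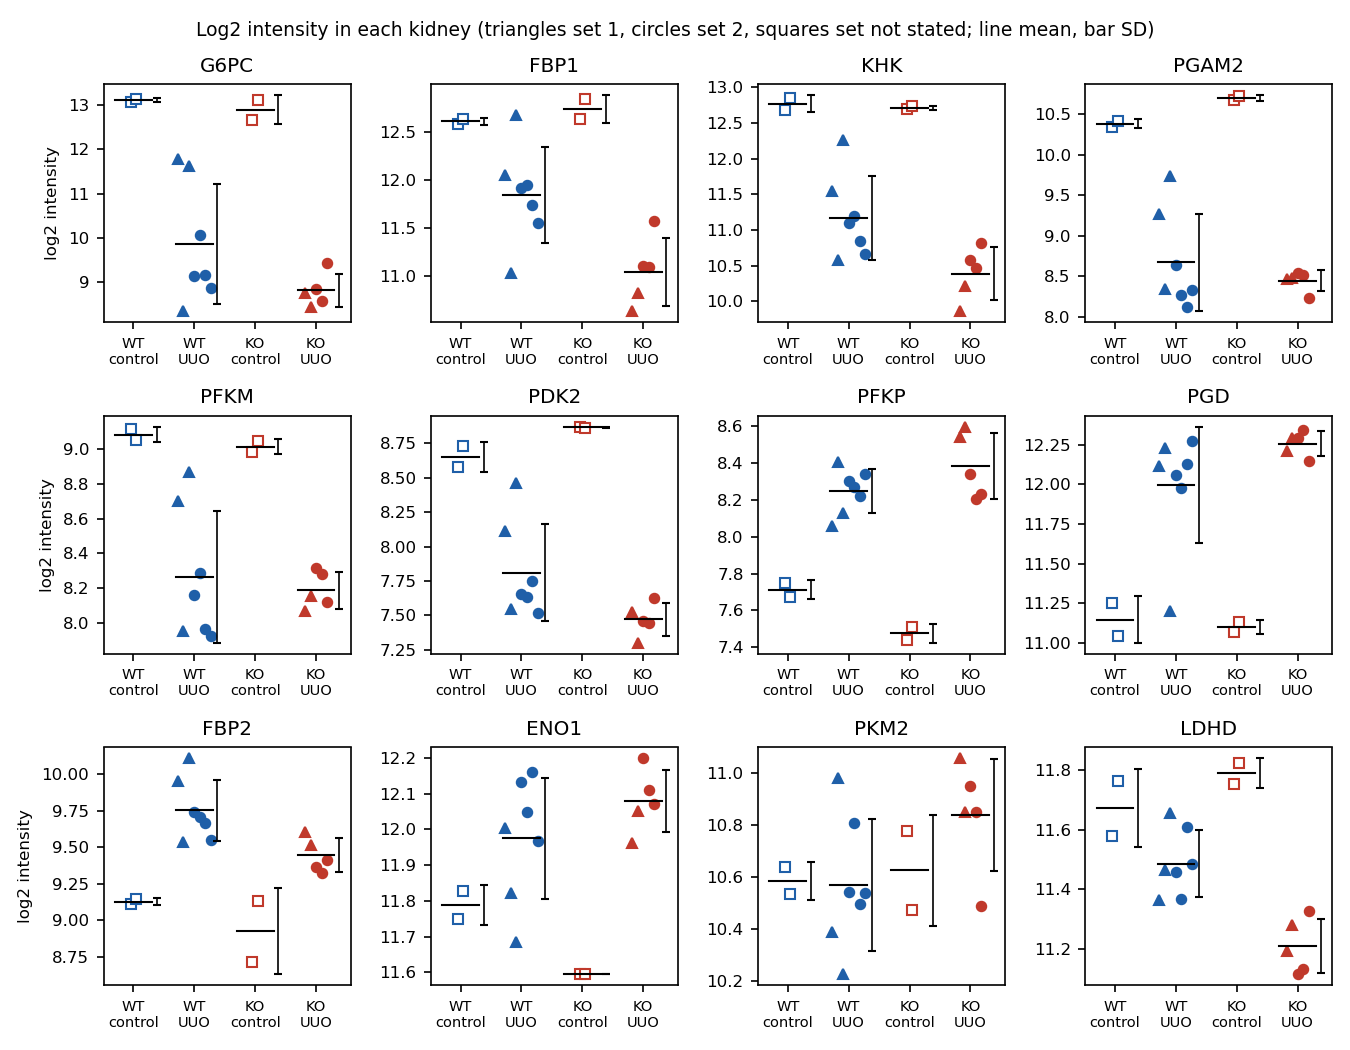
Log2 intensity of 12 members in each kidney, with control kidneys as open squares, set 1 UUO kidneys as triangles and set 2 UUO kidneys as circles, WT in blue and IL-33-deficient (KO) in red, a line at each group mean and a bar of 1 SD beside it; each panel has its own vertical scale. G6PC, KHK, PGAM2, PFKM and PDK2 lay below the controls in all UUO kidneys and PFKP and FBP2 above them, with 2 triangles of the WT UUO group (kidneys 3818 and 3820) nearest to the controls in the panels of G6PC, KHK, PGAM2, PFKM and PDK2.

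Upper glycolysis runs from glucose to the triose phosphates, and of its 8 measured members 2 fell and 1 rose in WT kidneys and 3 fell and 2 rose in IL-33-deficient kidneys. The forms of phosphofructokinase, which commits sugar to glycolysis, changed unequally. PFKP, known as the platelet form, lay at 7.68 and 7.75 in WT controls and 7.44 and 7.51 in IL-33-deficient controls. It rose to values from 8.06 to 8.40 with a median of 8.27 in WT UUO kidneys and to 8.20, 8.23, 8.34, 8.54 and 8.60 in IL-33-deficient UUO kidneys, without overlap in either genotype. The differences were 0.53 ± 0.10 (SE), fold 1.45, adjusted p = 0.00258 in WT and 0.91 ± 0.11 (SE), fold 1.88, adjusted p = 4.39e-05 in IL-33-deficient kidneys.

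PFKM, the muscle form, had values of 9.05 and 9.11 in WT controls and 8.98 and 9.04 in IL-33-deficient controls. It fell to values from 7.93 to 8.87 with a median of 8.16 in WT and to 8.07, 8.12, 8.16, 8.28 and 8.32 in IL-33-deficient UUO kidneys, with differences of -0.82 ± 0.20 (SE), adjusted p = 0.0131 and -0.82 ± 0.21 (SE), adjusted p = 0.0101. Kidneys 3818 and 3820 were again the WT kidneys nearest to the controls. PFKL, the liver form, fell in IL-33-deficient kidneys (-0.32 ± 0.10 (SE), adjusted p = 0.037) and had a difference of -0.20 ± 0.10 (SE), adjusted p = 0.221 in WT kidneys.

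Aldolase, which splits the sugar into trioses, showed a similar contrast between its forms. ALDOC, known as the brain form, had values of 7.90 and 8.18 in WT controls and 7.64 and 7.97 in IL-33-deficient controls. It fell to values from 6.91 to 7.40 with a median of 6.997 in WT UUO kidneys and to 6.93, 6.96, 6.98, 6.99 and 7.02 in IL-33-deficient UUO kidneys, levels near the median of all genes. The differences were -0.97 ± 0.11 (SE), fold 0.509, adjusted p = 0.000106 and -0.83 ± 0.12 (SE), fold 0.564, adjusted p = 0.000173. ALDOA, the widely expressed form, rose in IL-33-deficient kidneys (0.35 ± 0.10 (SE), adjusted p = 0.0206) and had a difference of 0.16 ± 0.10 (SE), adjusted p = 0.341 in WT kidneys. HK1 and HK3, hexokinases that trap glucose in the cell, had differences between -0.03 and 0.14, and TPI1, triose phosphate isomerase, -0.19 in WT and -0.14 in IL-33-deficient kidneys, and none of the 3 passed the test.

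The PFKFB genes encode bifunctional enzymes that make and remove fructose 2,6-bisphosphate, an activator of phosphofructokinase and inhibitor of fructose-1,6-bisphosphatase. Of the 4, PFKFB2 and PFKFB4 fell in both genotypes. PFKFB2 lay at 7.61 and 7.65 in WT controls and 7.63 and 7.74 in IL-33-deficient controls, and after UUO it had values from 7.16 to 7.43 with a median of 7.25 in WT and values of 7.25, 7.29, 7.29, 7.32 and 7.35 in IL-33-deficient kidneys. All 12 UUO kidneys lay below the controls of their genotype, with differences of -0.36 ± 0.06 (SE), adjusted p = 0.00153 and -0.39 ± 0.06 (SE), adjusted p = 0.000538. The fall of PFKFB4 was smaller, at -0.26 ± 0.06 (SE), adjusted p = 0.00622 in WT and -0.17 ± 0.06 (SE), adjusted p = 0.0481 in IL-33-deficient kidneys, where it was called in 9 of 27 alternative settings and its adjusted p reached 0.354. PFKFB1 and PFKFB3 had differences between -0.04 and 0.02, at log2 intensities near the median of all genes, and did not pass the test.

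Lower glycolysis leads from the triose phosphates to pyruvate, and of its 9 members 1 fell and 1 rose in WT kidneys and 1 fell and 4 rose in IL-33-deficient kidneys. The counts of 1 lie near the shares of all genes. The gene that fell in both was PGAM2, the muscle form of phosphoglycerate mutase. It lay at 10.34 and 10.42 in WT controls and 10.67 and 10.72 in IL-33-deficient controls. After UUO it had values from 8.12 to 9.73 with a median of 8.34 in WT kidneys, with kidneys 3818 and 3820 highest at 9.27 and 9.73. The IL-33-deficient UUO kidneys gave 8.23, 8.46, 8.48, 8.52 and 8.54. The differences were -1.71 ± 0.31 (SE), fold 0.305, adjusted p = 0.00216 and -2.25 ± 0.33 (SE), fold 0.21, adjusted p = 0.000203. PGAM2, PFKM and FBP2 are known as muscle forms, and 8 markers of skeletal muscle were therefore read beside them. None of the 8 was called in either genotype, and their summed intensity lay between 896 and 930 in all 16 kidneys.

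ENO1, enolase alpha, led the rises of lower glycolysis. It had values of 11.75 and 11.83 in WT controls and 11.59 and 11.59 in IL-33-deficient controls. After UUO it had values from 11.68 to 12.16 with a median of 12.004 in WT kidneys, where kidney 3819 lay between the controls and kidney 3820 below both, and the difference of 0.19 ± 0.10 (SE), adjusted p = 0.264 did not pass the test. In IL-33-deficient kidneys the values were 11.96, 12.05, 12.07, 12.11 and 12.20, all above the controls, with a difference of 0.48 ± 0.10 (SE), fold 1.4, adjusted p = 0.00298. The 2 IL-33-deficient controls lay below both WT controls, and the genotype difference among controls was -0.19 ± 0.12 (SE), adjusted p = 1.

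PGAM1, the widely expressed phosphoglycerate mutase, and ENO2, enolase gamma, likewise rose in IL-33-deficient kidneys (0.43 ± 0.11 (SE), adjusted p = 0.0115 and 0.36 ± 0.08 (SE), adjusted p = 0.0045) and had differences of 0.11 and 0.15 in WT kidneys that did not pass the test. PKLR, the liver and red cell pyruvate kinase, rose in both genotypes, by 0.33 ± 0.09 (SE), adjusted p = 0.0194 in WT and 0.37 ± 0.09 (SE), adjusted p = 0.00894 in IL-33-deficient kidneys, at a low level of 6.91 ± 0.02 (mean ± SD, n = 2) in WT controls and 7.24 ± 0.15 (n = 7) in WT UUO kidneys. PKM2, the symbol the table uses for the muscle pyruvate kinase gene Pkm, had differences of -0.02 ± 0.17 (SE), adjusted p = 0.973 and 0.21 ± 0.17 (SE), adjusted p = 0.481, and which of its splice forms the probe reads is not given in the sources used here. GAPDH, PGK1 and ENO3, the muscle enolase, ranged from -0.23 to 0.13 over both genotypes and none passed the test. For GAPDH, often used as a reference gene, the differences were -0.08 in WT and -0.09 in IL-33-deficient kidneys.

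Of the 7 genes at the fates of pyruvate, 3 fell in WT and 4 in IL-33-deficient kidneys, and none rose. PDK2, a kinase that switches off pyruvate dehydrogenase, fell most. It lay at 8.58 and 8.73 in WT controls and 8.86 and 8.87 in IL-33-deficient controls, and after UUO it had values from 7.51 to 8.46 with a median of 7.65 in WT and values of 7.30, 7.45, 7.46, 7.53 and 7.63 in IL-33-deficient kidneys. Neither genotype overlapped its controls, and kidney 3820 was nearest to them at 8.46. The differences were -0.84 ± 0.19 (SE), fold 0.558, adjusted p = 0.00758 and -1.39 ± 0.20 (SE), fold 0.381, adjusted p = 0.000164. PDK3, another of these kinases, also fell, with differences of -0.46 ± 0.11 (SE), adjusted p = 0.0142 in WT and -0.55 ± 0.12 (SE), adjusted p = 0.00366 in IL-33-deficient kidneys. PDHA1, the alpha subunit that they phosphorylate, fell as well, with differences of -0.37 ± 0.10 (SE), adjusted p = 0.0194 and -0.59 ± 0.10 (SE), adjusted p = 0.000745. PDK1, a further kinase of this enzyme, and PDHB, the beta subunit, gave differences between -0.19 and -0.01 and did not pass the test. PDK4, the remaining kinase gene and not one of the 40 members, had differences of 1.39 ± 0.66 (SE), adjusted p = 0.201 and 1.34 ± 0.69 (SE), adjusted p = 0.216. LDHA, which forms lactate from pyruvate, had differences of 0.17 ± 0.08 (SE), adjusted p = 0.173 and 0.04 ± 0.08 (SE), adjusted p = 0.807.

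LDHD, which oxidises D-lactate in mitochondria, had values of 11.58 and 11.76 in WT controls and 11.75 and 11.83 in IL-33-deficient controls. It had values from 11.36 to 11.66 with a median of 11.46 in WT UUO kidneys, overlapping the controls, and 11.11, 11.13, 11.19, 11.28 and 11.33 in IL-33-deficient UUO kidneys, below every other kidney. The difference was -0.19 ± 0.08 (SE), adjusted p = 0.145 in WT and -0.58 ± 0.08 (SE), fold 0.669, adjusted p = 0.000168 in IL-33-deficient kidneys. LDHD was added to the genes given kidney by kidney after its values were seen.

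In the pentose phosphate pathway no member fell. Of its 4 measured members, 2 rose in WT and 3 in IL-33-deficient kidneys. PGD, 6-phosphogluconate dehydrogenase, which yields NADPH, rose most. It had values of 11.04 and 11.25 in WT controls and 11.07 and 11.13 in IL-33-deficient controls, and after UUO values from 11.20 to 12.27 with a median of 12.12 in WT and values of 12.15, 12.21, 12.29, 12.29 and 12.34 in IL-33-deficient kidneys. Kidney 3820, at 11.20, lay between the WT controls, and the other 6 WT UUO kidneys lay at 11.98 or higher. The differences were 0.85 ± 0.19 (SE), fold 1.8, adjusted p = 0.00833 in WT and 1.16 ± 0.20 (SE), fold 2.23, adjusted p = 0.000782 in IL-33-deficient kidneys.

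TKT, transketolase, which joins the sugars of the pathway to those of glycolysis, rose in both genotypes, from 9.60 and 9.62 to values from 9.80 to 10.25 with a median of 10.04 in WT kidneys and from 9.63 and 9.89 to 10.05, 10.06, 10.17, 10.19 and 10.27 in IL-33-deficient kidneys. The differences were 0.45 ± 0.10 (SE), adjusted p = 0.00528 and 0.39 ± 0.10 (SE), adjusted p = 0.0105. G6PDX, glucose-6-phosphate dehydrogenase and the entry step, rose in IL-33-deficient kidneys (0.59 ± 0.10 (SE), adjusted p = 0.000751) and had a difference of 0.28 ± 0.10 (SE), adjusted p = 0.0665 in WT kidneys. TALDO1, transaldolase, had differences of 0.19 ± 0.12 (SE), adjusted p = 0.405 and 0.34 ± 0.13 (SE), adjusted p = 0.08. Markers of myeloid cells, which use this pathway for the oxidative burst, moved in the same direction. Of 14 such markers, 4 were higher and 1 lower in WT kidneys, and 8 and 1 in IL-33-deficient kidneys, with sums of 2786 to 2983 in WT controls, 3602 to 7020 in WT UUO kidneys, 2356 to 2684 in IL-33-deficient controls and 4870 to 7278 in IL-33-deficient UUO kidneys. Their part in the rises of PGD, TKT and G6PDX was not tested.

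The change of each paralog was also set against that of its sister gene within the same kidneys. The pairs described were picked from 21 after the values of their members were seen. For that reason the p-values of a permutation test run on the 21 pairs are not given. Some other pairs showed little contrast, such as PFKFB1 minus PFKFB3, with 0.05 in WT and -0.01 in IL-33-deficient kidneys, and HK1 minus HK3, with -0.09 and -0.17. PFKM minus PFKP differed between UUO and control kidneys by -1.35 in WT and -1.73 in IL-33-deficient kidneys on the log2 scale, and FBP1 minus FBP2 by -1.39 in WT and -2.22 in IL-33-deficient kidneys. For PGAM1 minus PGAM2 the values were 1.82 in WT and 2.68 in IL-33-deficient kidneys, for ALDOA minus ALDOC 1.14 in WT and 1.18 in IL-33-deficient kidneys, and for PDK1 minus PDK2 0.65 in WT and 1.35 in IL-33-deficient kidneys. In each of these 5 pairs the UUO kidneys did not overlap the controls of their genotype. This adds no support, since the pairs were picked after their values were seen and each genotype has 2 controls. Other pairs of the 21, such as PFKL minus PFKP and PFKFB1 minus PFKFB2, were also without overlap. ENO1 minus ENO2, of which ENO2 is dim, differed by 0.03 in WT and 0.13 in IL-33-deficient kidneys. A difference within an array shows unequal change and does not show that either gene stood still, and the changes of dim genes are compressed.

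**Figure D3:**
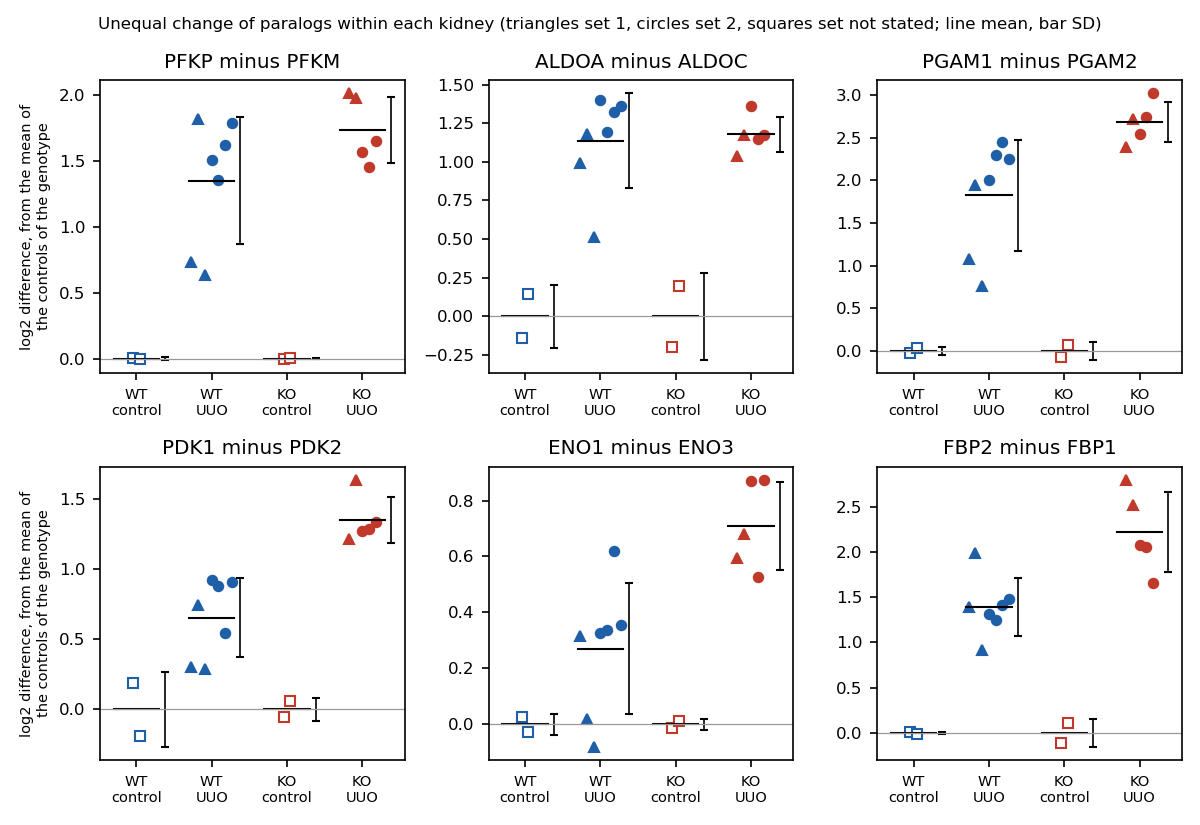
The log2 intensity of 1 paralog minus that of its sister gene is drawn for each kidney on the vertical axis, relative to the mean of the controls of that genotype, for 6 pairs, with control kidneys as open squares, set 1 as triangles, set 2 as circles, lines at group means and bars of 1 SD. All UUO kidneys lay above the controls of their genotype in the panels of PFKP, ALDOA, PGAM1, PDK1 and FBP2, and 2 WT UUO kidneys lay near the controls in the panel of ENO1 minus ENO3.

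Other genes of the same metabolism were read from further lists of carriers, enzymes and regulators. Their counts, here and in the next paragraph, stand beside 8.22% of all genes lower and 6.97% higher in WT kidneys. In IL-33-deficient kidneys the shares of all genes were 11.2% lower and 10.6% higher. Of 16 carriers of sugars, lactate and related acids, 3 were lower in WT and 7 in IL-33-deficient kidneys, and none was higher. SLC37A4, the carrier that brings glucose 6-phosphate to the enzyme encoded by G6PC, fell, with differences of -0.88 ± 0.26 (SE), adjusted p = 0.0334 in WT and -1.47 ± 0.27 (SE), adjusted p = 0.00114 in IL-33-deficient kidneys. SLC25A10, the mitochondrial dicarboxylate carrier, fell in IL-33-deficient kidneys (-1.81 ± 0.37 (SE), adjusted p = 0.00239), and so did SLC5A2, the glucose carrier of the early proximal tubule (-0.98 ± 0.31 (SE), adjusted p = 0.0369). In WT kidneys SLC25A10 had a difference of -1.04 ± 0.36 (SE), adjusted p = 0.0629, and SLC5A2 of -0.66 ± 0.30 (SE), adjusted p = 0.181. Neither passed the test there. Of 27 other enzymes of glucose and pyruvate, 6 were lower and 2 higher in WT kidneys, against 9 and 3 in IL-33-deficient ones. The counts higher lie near the shares of all genes. ACSS2, which makes acetyl-CoA from acetate, was lower, with differences of -1.46 ± 0.30 (SE), adjusted p = 0.00388 and -1.69 ± 0.31 (SE), adjusted p = 0.00103, whereas GPT2, the mitochondrial alanine aminotransferase, was higher by 1.09 ± 0.16 (SE), adjusted p = 0.000565 and 0.90 ± 0.17 (SE), adjusted p = 0.0011.

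Among 24 enzymes of glycogen, fructose, galactose and polyols, in WT kidneys 7 were lower and 1 higher, and without IL-33 there were 9 lower and 1 higher. MIOX, which opens the ring of inositol and is also one of the proximal tubule markers used here, fell, with differences of -2.05 ± 0.38 (SE), adjusted p = 0.00232 and -3.13 ± 0.40 (SE), adjusted p = 8.19e-05, and SORD, sorbitol dehydrogenase, with -1.31 ± 0.36 (SE), adjusted p = 0.0221 and -2.05 ± 0.37 (SE), adjusted p = 0.00103. Of 9 further pentose phosphate enzymes, 1 was lower and 2 were higher in each genotype. The count of 1 lower lies near the share of all genes lower. H6PD, the form of glucose-6-phosphate dehydrogenase in the endoplasmic reticulum, rose by 0.94 ± 0.17 (SE), adjusted p = 0.00225 and 0.97 ± 0.18 (SE), adjusted p = 0.00129, and PRPS1, which activates ribose for nucleotide synthesis, by 0.64 ± 0.13 (SE), adjusted p = 0.00483 and 0.79 ± 0.14 (SE), adjusted p = 0.000852, while its paralog PRPS2 fell, with differences of -0.69 ± 0.11 (SE), adjusted p = 0.00108 and -0.58 ± 0.12 (SE), adjusted p = 0.0021. Of 22 regulators, 5 were lower and 2 higher in WT kidneys, against 6 and 2 in IL-33-deficient ones. The counts of regulators higher lie near the shares of all genes. CEBPB, a transcription factor of the acute phase, rose by 1.65 ± 0.29 (SE), adjusted p = 0.00178 and 2.12 ± 0.31 (SE), adjusted p = 0.000196. PPARGC1A, a coactivator of mitochondrial and gluconeogenic genes, fell, with differences of -1.33 ± 0.23 (SE), adjusted p = 0.00152 and -1.43 ± 0.24 (SE), adjusted p = 0.000538, and IRS2, an adaptor of the insulin receptor, fell in WT kidneys (-1.10 ± 0.21 (SE), adjusted p = 0.00253).

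The WT UUO kidneys were not alike. To rank them without using their own calls, the genes called in IL-33-deficient kidneys were read in WT kidneys. For the 14 that fell there, the median difference of a WT UUO kidney from the mean of the WT controls was -0.22 in kidney 3820, -0.41 in kidney 3818 and between -0.54 and -0.99 in the other 5. Kidney 3820 was the WT UUO kidney nearest to the controls in 10 of these 14 genes and in 7 of the 10 that rose. Both kidneys belong to set 1, whose other WT kidney, 3819, was the farthest from the controls in 6 of the 14. With set 1 alone, ALDOC was the 1 member lower and 0 were higher in WT kidneys, and with set 2 alone 10 members were higher. Over all genes, 188 were called in either direction with set 1 alone and 4241 with set 2 alone, beside 2754 with both sets. For G6PC the WT difference was -2.53 ± 0.93 (SE) with set 1 alone and -3.79 ± 0.30 (SE) with set 2 alone, and for KHK -1.30 ± 0.42 (SE) and -1.81 ± 0.13 (SE). PGD gave 0.70 ± 0.28 (SE) and 0.96 ± 0.09 (SE).

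The response to UUO was next compared between genotypes. The test of the difference between the 2 responses called no member and no gene of the table, 0% of all genes by limma. At an unadjusted p under 0.05 there were 860 genes, with 4 members among them. These were PFKP (0.37 ± 0.15 (SE), a larger rise in IL-33-deficient kidneys), G6PDX (0.30 ± 0.14, likewise), LDHD (-0.39 ± 0.11, a larger fall in IL-33-deficient kidneys) and FBP1 (-0.93 ± 0.43, likewise), each with an adjusted p of 0.973. A call in IL-33-deficient kidneys and not in WT kidneys is therefore not shown to be a difference between the genotypes for any member. Among control kidneys no member was called either, again with 0% of all genes called, and 664 genes and 0 members had an unadjusted p under 0.05.

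After UUO, IL-33-deficient kidneys were compared with WT kidneys over the 12 UUO arrays by the rule of the methods (p under 0.05, adjusted p under 0.25 and a fold change over 1.3). By this rule 0.011% of all genes were called, which is 2 genes, IL33 itself and ACTA2, the smooth muscle actin gene, and no member. At an adjusted p under 0.05 the share was 0.00552%, IL33 alone. The median over the members was -0.02, with 23 of 40 below 0. At an unadjusted p under 0.05 there were 1874 genes and 10 members, of which 9 were lower in IL-33-deficient kidneys (LDHD, PDHA1, PDK2, PCX, PCK1, FBP1, FBP2, KHK and GALK1) and TALDO1 was higher.

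FBP1 is a member that the study lists for its own comparison of these genotypes after UUO, for which it states fewer WT kidneys than were used here. Which of the WT kidneys those were is not given in the sources used here, so the groups are not the same, and the choice of FBP1 on such samples makes it no independent evidence. Its level was 11.84 ± 0.50 (SD, n = 7) in WT and 11.04 ± 0.36 (SD, n = 5) in IL-33-deficient UUO kidneys. The fitted difference was -0.80 ± 0.24 (SE), fold 0.574, adjusted p = 0.32. IL-33-deficient kidney 3899 and WT kidney 3819 made the groups overlap. Without WT kidney 3819 the difference was -0.94 (adjusted p = 0.114) and FBP1 was called, together with PCX, PCK1 and KHK, and without IL-33-deficient kidney 3899 it was -0.93 (adjusted p = 0.247) and FBP1 was the 1 member called. The calls over all genes went from 2 to 309 without kidney 3819 and to 94 without kidney 3899. The difference of FBP1 was -1.19 ± 0.49 (SE) within set 1 and -0.53 ± 0.13 (SE) within set 2. The other genes of glucose release and fructose entry were lower in the fit without passing the test, with G6PC at -1.04 ± 0.56 (SE), adjusted p = 0.57, KHK at -0.78 ± 0.27 (SE), adjusted p = 0.356, PCK1 at -0.56 ± 0.21 (SE), adjusted p = 0.382 and PCX at -0.55 ± 0.20 (SE), adjusted p = 0.379. FBP2, whose level rose with UUO, was also lower in IL-33-deficient than in WT UUO kidneys, at -0.31 ± 0.10 (SE), adjusted p = 0.324, so both neighbours of chromosome 13 had the same sign here.

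LDHD was the 1 member whose 2 genotypes did not overlap after UUO. How many of all genes were likewise without overlap was not counted, so the share to set beside it is not known. The difference of LDHD was -0.28 ± 0.06 (SE), fold 0.825, adjusted p = 0.304, and it did not pass the test. The difference was -0.26 ± 0.10 (SE) within set 1 and -0.29 ± 0.07 (SE) within set 2. PDK2, PDHA1 and GALK1 were at -0.34 ± 0.15 (SE), adjusted p = 0.462, -0.20 ± 0.07 (SE), adjusted p = 0.386 and -0.22 ± 0.08 (SE), adjusted p = 0.379. On the other side of 0, PKM2 was at 0.27 ± 0.13 (SE), adjusted p = 0.493, PGD at 0.26 ± 0.15 (SE), adjusted p = 0.601 and TALDO1 at 0.22 ± 0.09 (SE), adjusted p = 0.446.

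**Figure D4:**
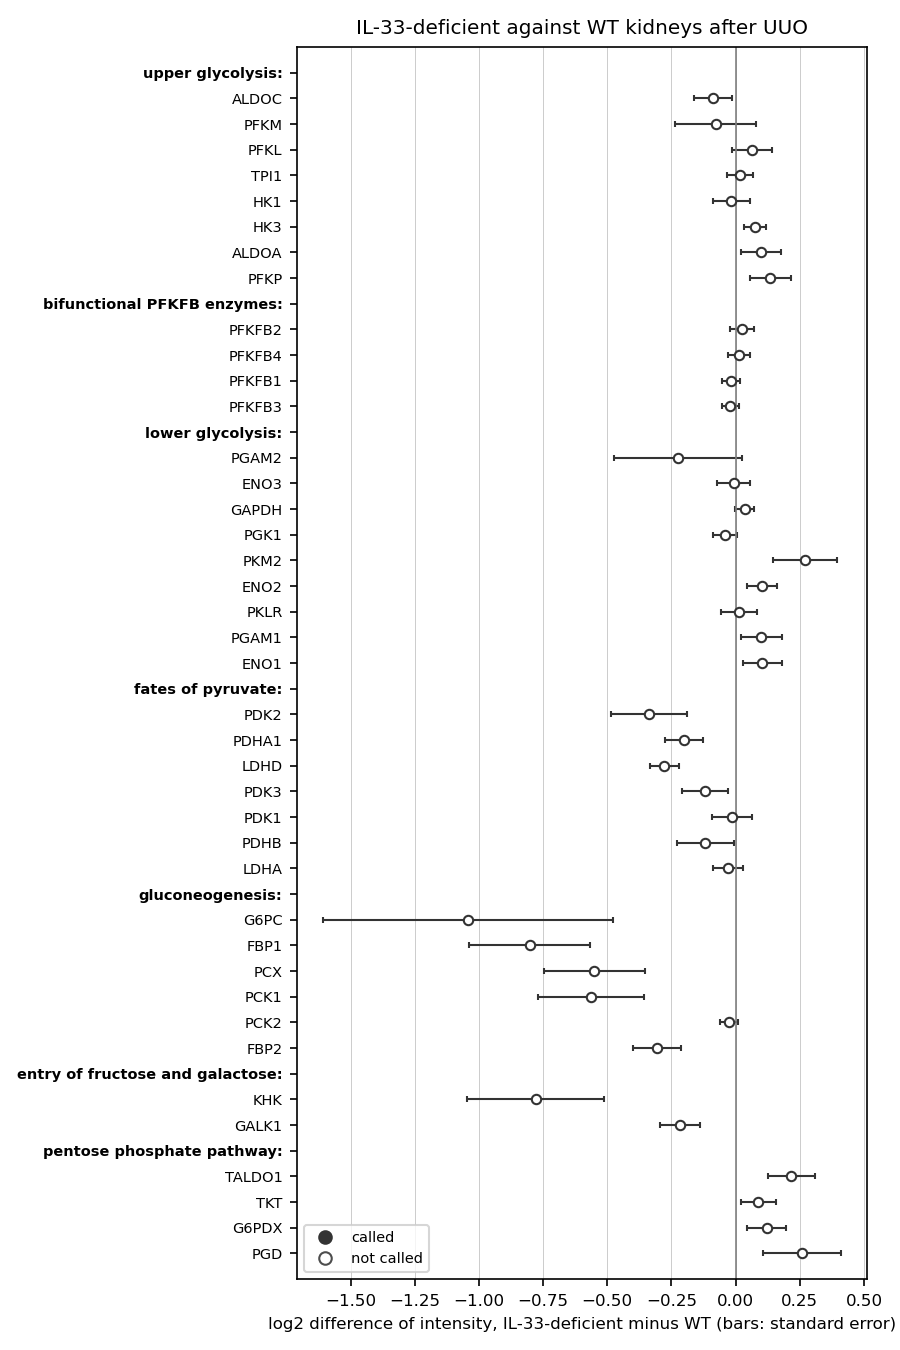
The log2 difference of intensity, IL-33-deficient minus WT, over the 12 UUO kidneys is drawn on the horizontal axis for each of the 40 members in the same row groups, with bars of the standard error, and every point is open because none was called. G6PC lies farthest to the left at -1.04, followed by FBP1 at -0.80 and KHK at -0.78, and PKM2 farthest to the right at 0.27.

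The proximal tubule markers also lay lower in IL-33-deficient UUO kidneys. None of the 12 was called by the rule, 11 were below 0, and their median log2 difference was -0.44. Over all genes 48.1% were below 0. Their summed intensity in the 5 IL-33-deficient kidneys overlapped that of WT kidney 3819 only. Some other lists lay the other way. Of 9 fibroblast and smooth muscle markers 0 were below 0 and 1 was called higher, with a median of 0.28. Of 14 myeloid markers 2 were below 0 and 0 were called, with a median of 0.16. The part of these cell types in the lower values of FBP1, G6PC, KHK, PCK1 and PCX was not tested.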

How the data were processed

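Per the labels and methods, total RNA of 16 mouse kidneys was labelled with the Illumina TotalPrep kit and hybridised to MouseRef-8 v2 BeadChips. The authors read the arrays with beadarray and deposited linear intensity values, 1 per gene, after processing whose background correction, normalization and joining of probes are not given in the sources used here. The submitters' processing notes name BeadStudio 2. The deposited intensities were quantile-normalized again and taken to log2, which changed little because equal ranks already had alike values in all arrays (median spread 0.706%).

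Group means were fitted with limma 3.58.1 (lmFit and eBayes, R 4.3.3) over all genes and 16 arrays, called at an adjusted p under 0.05 (Benjamini-Hochberg over 18132 genes). The genotypes after UUO were compared over the 12 UUO arrays and called by the rule of the methods. The members, the further lists and the markers were chosen with earlier results of these data known. Values of the kidneys are given for the member with the largest rise and fall among those called in each group of steps. The same was done for FBP1 and for any member called between genotypes. The WT UUO kidneys are mostly given as a range and a median. From the further lists, up to 3 called genes with the largest differences are named. PCX, PFKM, TKT, LDHD and GPT2 were added after their values were seen. The fits were tested on simulated data. Gene positions and promoter windows come from RefSeq (GRCm38.p6), where 39 members matched by symbol and PKM2 as a synonym of Pkm; motifs were searched on both strands. Arrays give no counts, so their number limits the precision. Alternatives were the scaling, the background, the prior variance, array weights, brighter genes alone, the arrays in the fit, the set of mice, the thresholds and leaving out each array. Sequences of the proteins were not used here.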

Additional observations from a re-analysis of the deposited data

Results flagged for a closer look

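In 82 groups of 5 or 7 kidneys, 1 kidney was checked for standing apart from the others by Dixon's criterion, which flags about 1 in 20 groups by chance, and 7 did so. PGD in WT UUO kidney 3820 was 11.20, below the other 6 at 11.98 to 12.27. In the same group PFKL in kidney 3893 was 9.50, above the others at 9.03 to 9.15, and IL33 in kidney 3818 was 8.39, below the others at 9.10 to 9.57. In IL-33-deficient UUO kidney 3822, HK3 was 7.14, above the others at 7.005 to 7.02, and G6PDX was 8.54, below the others at 8.68 to 8.72. In IL-33-deficient UUO kidney 3899, PGAM2 was 8.23, below the others at 8.46 to 8.54, and TALDO1 was 12.53, below the others at 12.76 to 12.84. The causes were not tested.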

How the results depend on the processing

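No alternative reversed the sign of a called member. The medians over the members lay near 0, and their sign was not followed over the alternatives. All 15 members called in WT kidneys kept their sign in the 28 alternatives, but ALDOC was the 1 member called in all of them, while 14 of the 24 called in IL-33-deficient kidneys were called in all 27. For WT kidneys, the members higher after UUO numbered 9 with array weights, 3 with the 2 groups alone, 0 with set 1 alone, 10 with set 2 alone and 10 with kidneys 3818 and 3820 both left out, an alternative chosen after seeing the data, and the members lower numbered 1 with set 1 alone. Over all genes these settings called 4022, 1778, 188, 4241 and 4116, against 2754. Each of these 5 counts moved the same way as that of the members. The counts over all genes in this section join both directions, so the share called in 1 direction alone is not given. Leaving out 1 kidney at a time gave 3 to 12 lower and 0 to 8 higher, with the lowest counts when 1 control was left. For IL-33-deficient kidneys, the members higher numbered 6 at a stricter adjusted p of 0.01, 5 with set 1 alone, and from 4 to 11 with 1 kidney left out, beside 2571 and 2258 of all genes at the first 2 settings against 3955. With set 1 alone the median of the members was -0.11 in IL-33-deficient kidneys and -0.058 for the difference between responses. Between genotypes after UUO, the members lower numbered 1 with array weights, 3 among brighter genes, 1 with set 2 alone, 1 with all 16 arrays in the fit and 0 to 4 with 1 kidney left out, and FBP1 was among those called in 6 alternatives of 26. The first 4 of these settings called 80, 168, 81 and 127 of all genes, against 2. The causes were not tested. No paired analysis was possible because each array has its own number and no number is shared between groups. With 2 controls a genotype, and background in every intensity, small changes of dim members could not be detected.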
